A study of Mus musculus with 6 samples.

Results

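The catecholamine neuron genes examined here were *Th*, *Dbh*, *Slc6a2*, *Slc6a3*, *Slc18a2*, *Ddc*, *Phox2a* and *Pnmt*, 8 genes found by name among the 34632 loci of the deposited transcript assembly. Each of the 8 had its own locus, so none had to be chosen among copies. They were measured by RNA-Seq in the brainstem of P21 mice, in 3 *Hoxa5* control libraries and 3 *Hoxa5* cKO libraries as labelled, and RNA of 3 brainstems was pooled for each of them. The control animals were Hoxa5flox/flox;CMV-CreERT2-/- and the cKO animals Hoxa5flox/flox;CMV-CreERT2+/-, on a mixed background composed mainly of 129/Sv. Both genotypes therefore carried the floxed *Hoxa5* allele on each chromosome, and both received tamoxifen from P1 to P4, so that they differed by the Cre transgene. That transgene is driven by the CMV promoter, which is active in many cell types and not restricted to neurons of the brainstem.

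Catecholamines are made from tyrosine in a chain of enzyme steps. Tyrosine hydroxylase, encoded by *Th*, performs the rate-limiting step and the decarboxylase encoded by *Ddc* makes dopamine. Dopamine beta-hydroxylase, encoded by *Dbh*, turns it into noradrenaline, and the methyltransferase encoded by *Pnmt* turns noradrenaline into adrenaline. The vesicular transporter encoded by *Slc18a2* loads all monoamines into vesicles, while the plasma membrane transporters encoded by *Slc6a2* and *Slc6a3* take noradrenaline and dopamine, respectively, back into the cell. *Phox2a* encodes a homeodomain transcription factor required for noradrenergic neurons of the locus coeruleus. Here *Dbh*, *Slc6a2*, *Phox2a* and *Pnmt* were grouped with the hindbrain noradrenaline and adrenaline neurons of the pons and medulla. *Slc6a3* was grouped with the dopamine neurons of the ventral midbrain, and *Th*, *Ddc* and *Slc18a2* with both. This grouping does not mean that each gene is restricted to those neurons. *Ddc* and *Slc18a2* are also used by serotonin neurons.

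In the deposited assembly (mm10), *Th* lay on chromosome 7 from 142892776 to 142899966 (minus strand, 13 exons) and *Dbh* on chromosome 2 from 27165507 to 27183204 (plus strand, 12 exons). *Slc6a2* lay on chromosome 8 from 92960660 to 93001667 and *Slc6a3* on chromosome 13 from 73536747 to 73578672, both on the plus strand. *Ddc* lay on chromosome 11 from 11814077 to 11898144 (minus strand), *Slc18a2* on chromosome 19 from 59260878 to 59296102, *Phox2a* on chromosome 7 from 101818313 to 101822726 and *Pnmt* on chromosome 11 from 98386632 to 98388097. The loci of *Phox2a*, *Slc18a2* and *Ddc* each overlapped a gene on the opposite strand. *Phox2a*, with a mean of 6.33 fragments a library, overlapped *Inppl1*, with 1174. *Slc18a2* had a mean of 626 and overlapped *Pdzd8*, with 2265. *Ddc* had a mean of 496 and overlapped *1700042O10Rik*, with 3.17. The libraries were made with a kit that marks strand, but whether the counting used it is not given in the sources used here. Whether the counts of *Phox2a* and *Slc18a2* hold fragments of *Inppl1* and *Pdzd8* was not tested. *Th*, *Dbh*, *Slc6a2*, *Slc6a3* and *Pnmt* overlapped no other locus.

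The promoters of *Dbh*, *Th* and *Slc6a3* are shown. Across the libraries *Th* and *Slc6a3* shared their highest libraries, and *Dbh* did not follow them. The windows hold the 250 bases before the RefSeq start of each gene (GRCm38.p6), 5′ to 3′ on the gene's own strand. They lie at chr2:27165257-27165506 (plus strand), chr7:142899996-142900245 (minus strand) and chr13:73536497-73536746 (plus strand). Capitals mark ATTA on either strand (read as TAAT on the other), the core of many homeodomain binding sites, and TGACGTCA, the palindromic cyclic AMP response element.
Dbh: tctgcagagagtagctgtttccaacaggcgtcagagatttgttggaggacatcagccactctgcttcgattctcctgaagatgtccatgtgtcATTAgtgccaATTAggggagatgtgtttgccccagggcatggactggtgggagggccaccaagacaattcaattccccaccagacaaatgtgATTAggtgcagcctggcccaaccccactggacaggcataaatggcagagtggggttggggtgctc
Th: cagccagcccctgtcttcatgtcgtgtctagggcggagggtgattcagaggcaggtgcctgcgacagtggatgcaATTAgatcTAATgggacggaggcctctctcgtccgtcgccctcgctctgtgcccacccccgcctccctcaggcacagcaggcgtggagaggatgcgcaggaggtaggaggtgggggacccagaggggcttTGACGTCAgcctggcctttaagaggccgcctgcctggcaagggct
Slc6a3: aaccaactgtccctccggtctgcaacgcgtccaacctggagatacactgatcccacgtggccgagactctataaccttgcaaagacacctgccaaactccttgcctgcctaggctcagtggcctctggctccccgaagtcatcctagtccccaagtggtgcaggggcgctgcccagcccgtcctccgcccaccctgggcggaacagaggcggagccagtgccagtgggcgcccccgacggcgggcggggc

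The *Dbh* window held 3 matches to ATTA, which began 157, 147 and 65 bases before the start. In rat and human, homeodomain proteins are known to bind ATTA-containing elements of this promoter. The *Th* window held 2 matches to ATTA and 1 to TGACGTCA, the latter 45 bases before the start, and the *Slc6a3* window held neither. Of all 32851 RefSeq windows of this length, 17.3% held at least 3 matches to ATTA, 54.9% at least 1, and 1.55% at least 1 match to TGACGTCA. These matches describe the letters only. Promoter windows were found for 6 of the 8 genes, and those of *Slc6a2* and *Pnmt* were not among them.

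The libraries held 12034613 to 13202707 fragments. The locus of *Hoxa5*, which is merged with *Hoxa6* and a noncoding RNA, did not follow the labels, with 202, 337 and 77 fragments in the libraries labelled control (replicates 1, 2 and 3) and 279, 57 and 63 in those labelled cKO. *Hoxc8* had 27, 19 and 7 fragments under the control label and 13, 3 and 2 under the cKO label. *Hoxb9* had 43, 28 and 20 against 30, 13 and 11. Both were highest in the same libraries as *Hoxa5*, as was *Hoxa4* (in CPM) by a smaller margin, but *Hoxb4* and *Hoxb5* were not. By RT-qPCR of dissected subregions, the authors found *Hoxa5* transcripts strongly reduced after this treatment. Every direction given here rests on the labels. Fragments of 4 Y-linked genes numbered 3 in the library labelled cKO replicate 1 and 1069 to 1734 in the others, so the pools differed in the sex of their animals. Markers of the hindbrain were present, with *Slc6a5* at 2523 to 3427 fragments and *Hoxb5* at 121 to 149, and markers of the midbrain were present too, with *Otx2* at 63 to 108. Transcripts of cerebellar neurons were lower in the libraries labelled cKO. Of 8 granule neuron markers 6 were called lower, and of 9 Purkinje cell markers 6, against 0.503% of all loci tested. Several of them, such as *Gabra6*, *Car8* and *Itpr1*, had already been reported as lower in these libraries by the authors, so these counts are no separate support. The authors also detected some, such as *Cbln1* and *Calb1*, in nuclei of the medulla. None of the markers was at 0, and the granule neuron markers summed to 453 to 768 CPM in controls but 250.4 to 281 CPM in cKO libraries. In pooled tissue, fewer cells of a type and less RNA per cell cannot be told apart.

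The level of each gene was compared between libraries in CPM, fragment counts scaled to a common library size by TMM, and between genes in FPKM, which also divides by transcript length. In FPKM the order over the 6 libraries was *Ddc* (mean 22.2 ± 1.48), *Slc18a2* (18.9 ± 0.888), *Th* (8.65 ± 2.84), *Slc6a3* (5.40 ± 3.325), *Dbh* (3.76 ± 0.807), *Slc6a2* (1.78 ± 0.278), *Phox2a* (0.445 ± 0.154) and *Pnmt* (0.0771 ± 0.0938; SD, n = 6 each). *Ddc* and *Slc18a2*, which serotonin neurons share, thus stood above the genes restricted to catecholamine neurons. Of the 7 pairs of neighbours in this order, 6 kept it in every library. Each of these had p = 0.03125, the smallest possible, and adjusted p = 0.0365 over the 7 pairs (two-sided exact sign-flip permutation test over 6 libraries). *Slc6a3* and *Dbh* did not differ beyond their spread, with *Slc6a3* higher in 3 of 6 libraries (same exact test, p = 0.438). The order was taken from the same values that were tested, so these p-values give no separate support for it. The pair of *Phox2a* and *Pnmt* rests on 4 to 9 against 0 to 2 fragments a library.

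**Figure D1:**
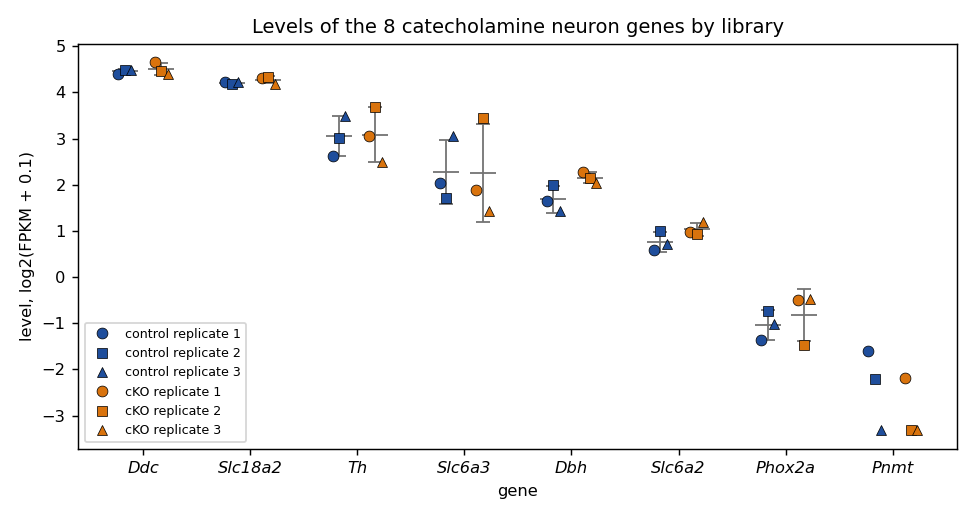
Level of each gene (x axis) as log2(FPKM + 0.1) (y axis), 1 point per library, where color gives the genotype as labelled, shape gives the replicate, and grey bars give mean and SD within a genotype, n = 3 (none for *Pnmt*, which is at 0 in 3 libraries). *Slc6a3* and *Th* spread widely within each genotype, with control replicate 3 and cKO replicate 2 on top, while the 3 libraries labelled cKO lie above the controls for *Dbh*.

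The dopamine transporter gene *Slc6a3*, the midbrain member, varied several-fold among libraries of the same label. It had 166, 132 and 368 fragments in the libraries labelled control (replicates 1, 2 and 3, at 13.6, 10.8 and 27.8 CPM) and 145, 483 and 110 in those labelled cKO (12.1, 37.1 and 8.69 CPM). Control replicate 3 and cKO replicate 2 were high, the other 4 libraries were low, and the genotypes overlapped. The highest library held 2.59 times the lowest under the control label and 4.27 times under the cKO label. The SD of its log2 CPM within genotypes was 0.92, larger than that of 99.9% of the 2649 loci within 0.5 log2 CPM of its mean level. Control libraries averaged 17.4 ± 9.14 CPM and cKO libraries 19.3 ± 15.5 CPM (SD, n = 3 per genotype). The log2 fold change was 0.15 with a standard error of 0.38 and a 95% interval from -0.66 to 0.96 (edgeR, adjusted p = 0.975). The sign of this value rested on single libraries: it was -0.75 without cKO replicate 2 (adjusted p = 0.622 from edgeR) and 0.67 without control replicate 3, with adjusted p from 0.622 to 1 over all alternatives.

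*Th* shared the 2 high libraries with *Slc6a3*, at a smaller amplitude. It had 129, 168 and 257 fragments in the libraries labelled control (10.6, 13.7 and 19.4 CPM) and 168, 292 and 122 in those labelled cKO (14.02, 22.4 and 9.63 CPM). Control replicate 3 and cKO replicate 2 were again the highest, and the genotypes overlapped. Its SD of log2 CPM within genotypes, 0.53, was larger than that of 99.7% of 2612 loci of like level. The log2 fold change was 0.07 (standard error 0.23, adjusted p = 0.979 from edgeR, 95% interval -0.41 to 0.56), and it was -0.31 without cKO replicate 2 and 0.34 without control replicate 3 (adjusted p from 0.845 to 1 over all alternatives). *Th* is made by dopamine and noradrenaline neurons alike, and its ratio to *Slc6a3* on the log2 CPM scale ran from -0.72 in cKO replicate 2 to 0.34 in control replicate 2.

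A minority of the other dopamine neuron genes, and some midbrain genes, had the same high libraries. The 4 given first were picked for this order after their values were seen. *Chrna6*, a nicotinic receptor subunit of dopamine neurons, had 53, 39 and 86 fragments under the control label and 31, 105 and 39 under the cKO label. *Chrnb3*, its partner subunit, had 17, 19 and 27 against 16, 42 and 16. Under the control label the midbrain transcription factor gene *Pax7* had 57, 49 and 70 fragments, against 39, 95 and 45 for cKO. Control replicate 3 and cKO replicate 2 led again, as they did for *Tal1*, another such gene, with 106, 110 and 175 against 119, 162 and 143. Control replicate 3 and cKO replicate 2 were the 2 highest libraries (in CPM) for 6.77% of all loci tested. The same held for 2 of 9 dopamine neuron markers and 0 of 6 tested transcription factors of dopamine neurons. It held for 3 of 6 tested midbrain markers (*Pax7*, *Tal1* and *Barhl1*). *Barhl1* met it narrowly, at 5.29 and 5.14 CPM against 5.05 CPM in both control replicate 2 and cKO replicate 3. It also held for 1 of 10 noradrenaline neuron markers (*Cartpt*) and 1 of 8 brainstem markers (*Slc17a6*). None of 6 serotonin neuron markers and none of 6 cholinergic motor neuron markers met it. This count was chosen after the *Slc6a3* values were seen. The other 7 dopamine neuron markers (*Aldh1a1*, *Ntsr1*, *Gucy2c*, *Slc10a4*, *Ret*, *Drd2* and *Satb1*) did not have this order. Nor did the transcription factor genes *Lmx1a*, *Lmx1b*, *Nr4a2*, *En1*, *En2* and *Otx2*. *Hoxa5* was low in control replicate 3 and in cKO replicate 2 but also in cKO replicate 3, where *Slc6a3* was at its lowest.

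**Figure D2:**
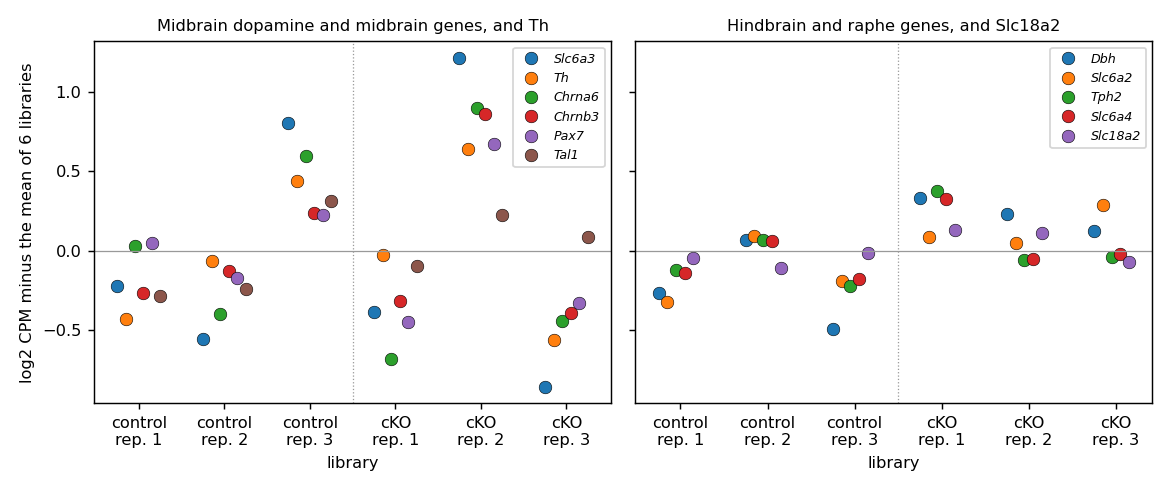
Log2 CPM of selected genes minus each gene's mean over the 6 libraries (y axis), by library (x axis), with color for the gene. On the left, genes picked for their order, with *Slc6a3* and *Th*, are high in control replicate 3 and cKO replicate 2, where *Slc6a3* had 27.8 and 37.1 CPM. On the right, the selected genes *Dbh*, *Slc6a2*, *Tph2*, *Slc6a4* and *Slc18a2* do not share that pattern.

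*Dbh*, the enzyme gene that defines noradrenaline and adrenaline neurons, stood higher in the 3 cKO libraries, as labelled, than in any control, but the difference did not pass the test over all loci. It had 94, 120 and 87 fragments in the libraries labelled control (7.70, 9.77 and 6.57 CPM) and 141, 143 and 129 in those labelled cKO (11.8, 11.0 and 10.2 CPM). The library labelled cKO replicate 3, the lowest of its label (10.2 CPM), lay just above the highest control (replicate 2, 9.77 CPM). Libraries labelled cKO lay above all controls for 5.61% of the loci tested. Control libraries averaged 8.02 ± 1.62 CPM and cKO libraries 11.0 ± 0.792 CPM (SD, n = 3 per genotype). The log2 fold change was 0.46 with a standard error of 0.14 and a 95% interval from 0.16 to 0.75, or 1.37-fold. The unadjusted p was 0.0045 and the adjusted p 0.297 from edgeR, with adjusted p from 0.0832 (without control replicate 2) to 0.888 (without control replicate 3 and cKO replicate 2) over all alternatives. The log2 fold change stayed between 0.32 and 0.62 in all of them. The lower cerebellar transcripts, given above, moved with the same labels, and their part in the *Dbh* difference was not tested. All 8 brainstem markers also had log2 fold changes above 0, from 0.03 to 0.18, with none called. So did all 6 tested serotonin neuron markers (median 0.18) and all 6 tested cholinergic motor neuron markers (median 0.14), with none called. Of 10 noradrenaline neuron markers, 6 were above 0. Over all loci tested, 11227 of 21854 were above 0. These markers share libraries and scaling, and some stand in more than 1 list, so they are not separate observations. Their relation to *Dbh* was not tested.

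The noradrenaline transporter gene *Slc6a2* leaned the same way, with overlap between the genotypes. It had 100, 135 and 119 fragments in the libraries labelled control (8.19, 11.0 and 8.99 CPM) and 131, 139 and 160 in those labelled cKO (10.9, 10.7 and 12.6 CPM). Control replicate 2 lay among the cKO libraries, and the other 2 controls lay below all of them. The log2 fold change was 0.28 (standard error 0.13, 95% interval 0.01 to 0.55, unadjusted p = 0.0422 and adjusted p = 0.685 from edgeR). It stayed above 0 in all alternatives, from 0.18 to 0.41, with adjusted p of 0.452 or more. Neither *Dbh* nor *Slc6a2* was highest in control replicate 3 and cKO replicate 2, the libraries with the most *Slc6a3*.

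The other hindbrain members were too rare to be compared. *Phox2a* had 4, 7 and 6 fragments in the libraries labelled control and 8, 4 and 9 in those labelled cKO, 17 and 21 in all, and did not pass the filter on low counts. Fitted without that filter, its log2 fold change was 0.31 with a 95% interval from -0.93 to 1.54, so no difference in either direction was detectable at this depth. *Pnmt*, the mark of adrenaline neurons, had 2, 1 and 0 fragments in the libraries labelled control and 1, 0 and 0 in those labelled cKO. A count of 0 allows up to 3 fragments, or 0.227 to 0.250 CPM depending on the library, and *Pnmt* was under that floor in every library, so no fold is given. Such limits cover counting error only.

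The ratio of *Dbh* to *Slc6a3* sets a hindbrain against a midbrain member within each library. On the log2 CPM scale it was -0.81, -0.14 and -2.05 in the libraries labelled control and -0.04, -1.74 and 0.23 in those labelled cKO. It was lowest in control replicate 3 and cKO replicate 2, and the genotypes overlapped. The means were -0.999 ± 0.97 and -0.52 ± 1.07 (SD, n = 3 each), a difference of 0.48 (two-sided exact permutation test, p = 0.5, where 0.1 is the smallest that 3 against 3 allow). Without control replicate 3 the difference was -0.05. For *Slc6a2* the ratio to *Slc6a3* was -0.72, 0.03 and -1.61 under the control label and -0.14, -1.78 and 0.53 under the cKO label, with the same 2 libraries lowest. A difference in genotype effect between hindbrain and midbrain members was therefore not detectable.

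**Figure D3:**
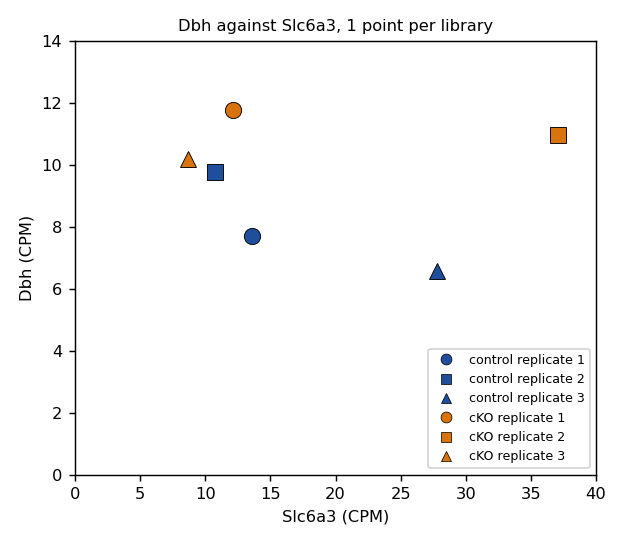
*Dbh* (y axis, CPM) against *Slc6a3* (x axis, CPM), in each of the 6 libraries, where color gives the genotype as labelled and shape gives the replicate. The libraries labelled cKO lie between 10.2 and 11.8 CPM of *Dbh* and the controls between 6.57 and 9.77 CPM, while *Slc6a3* separates control replicate 3 and cKO replicate 2 from the other 4.

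*Slc18a2* and *Ddc*, the members that serotonin neurons share, varied less than *Slc6a3* and *Th*. Their SDs of log2 CPM within genotypes, 0.085 and 0.10, were still larger than those of 61.9% and 71.2% of loci of like level. *Slc18a2* had control values of 48.2, 46.0 and 49.1 CPM and cKO values of 54.4, 53.7 and 47.4 CPM. Replicate 3 of the cKO label lay within the controls and the other 2 lay above them. Its log2 fold change was 0.12 (standard error 0.07, adjusted p = 0.814 from edgeR, 95% interval -0.02 to 0.26). *Ddc* had 37.4, 39.2 and 39.5 CPM in the controls and 44.7, 39.2 and 37.1 CPM in the cKO libraries, with only cKO replicate 1 above the controls. Its log2 fold change was 0.06 (standard error 0.07, adjusted p = 0.939 from edgeR, 95% interval -0.10 to 0.22). *Tph2*, which encodes the serotonin-making hydroxylase of the raphe, was also highest in cKO replicate 1, with 40.8, 46.4 and 38.1 CPM in controls and 57.6, 42.6 and 43.1 CPM in cKO libraries. So was the serotonin transporter gene *Slc6a4*, at 38.6 CPM against 27.2 to 32.1 CPM in the other 5 libraries. A wide spread was not limited to *Slc6a3* and *Th*. The SD within genotypes exceeded that of 98.4% of loci of like level for *Tph2*, 95.5% for *Slc6a4* and 82.4% for *Dbh*.

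Of the 6 members that passed the filter, edgeR called 0, against 0.531% of all 21854 loci tested (116 loci, 110 of them lower in the libraries labelled cKO). None was called lower, against 0.503% of all loci, and none called higher, against 0.0275%. DESeq2 also called 0 of the 6, with 118 of all 21854 loci called. Limma called 0 of 19282 loci on log2(FPKM + 1) and 1 on log2(FPKM + 0.1), so its 0 for the members carries no information about them. At an unadjusted p under 0.05 from edgeR there were 2 members, *Dbh* and *Slc6a2*, both higher, against 6.94% of all loci in either direction and 2.91% for higher values. None of the 6 had every library labelled cKO below every control, against 6.54% of all loci, and *Dbh* alone had them above. The intervals differ widely between members. That of *Ddc* allows changes of 0.935-fold to 1.16-fold and that of *Slc6a3* 0.631-fold to 1.95-fold.

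**Figure D4:**
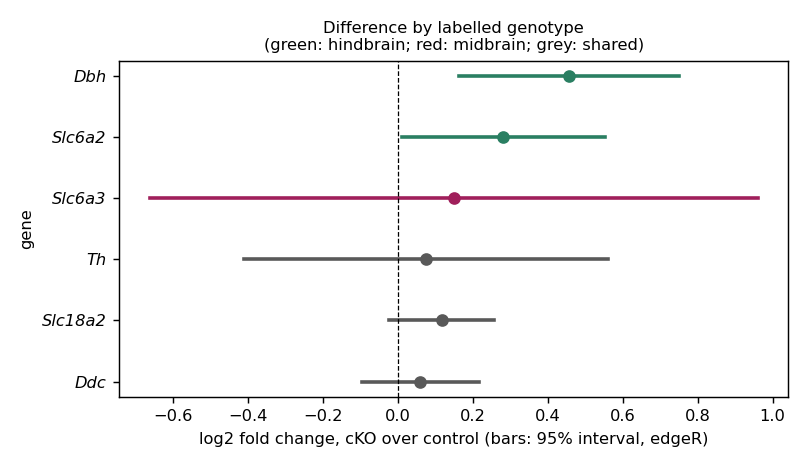
Log2 fold change of the 6 tested members, cKO over control as labelled (x axis), with the 95% interval from edgeR (bars), by gene (y axis). The interval of *Slc6a3* runs from -0.66 to 0.96 and that of *Ddc* from -0.10 to 0.22, and those of *Dbh* and *Slc6a2* lie above 0 before adjustment.

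Genes around the pathway were likewise mostly not called. For the tetrahydrobiopterin cofactor that tyrosine hydroxylase needs, 0 of 7 genes were called and 0 had an unadjusted p under 0.05 (edgeR), with a median log2 fold change of 0.0017 against 0.0034 over all loci tested. *Gch1*, which encodes the first enzyme of cofactor synthesis, had 4.997, 6.11 and 4.68 CPM under the control label and 5.99 to 6.09 CPM under the cKO label, and its log2 fold change was 0.20 (edgeR, adjusted p = 0.889). For breakdown, uptake and vesicle genes, *Maoa* and *Maob* among them, 0 of 13 were called (median 0.03). *Cyb561*, which encodes the vesicle cytochrome that supplies electrons for dopamine beta-hydroxylase, was the 1 of the 13 with an unadjusted p under 0.05. It had 31.6, 28.9 and 28.6 CPM in the controls and 36.2, 32.6 and 32.3 CPM in the cKO libraries, a log2 fold change of 0.18 (unadjusted p = 0.0272, adjusted p = 0.634 from edgeR).

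Receptors for catecholamines did not pass the test either. Of 9 adrenergic receptor genes, 8 were tested, 0 were called and 0 had an unadjusted p under 0.05 from edgeR (log2 fold changes -0.12 to 0.14), with *Adra1a* the most abundant at 552 to 734 fragments. Of 5 dopamine receptor genes, *Drd2* and *Drd5* were tested and not called, and *Drd2*, the autoreceptor of dopamine neurons, had a log2 fold change of -0.16 (adjusted p = 0.867 from edgeR). *Drd3* and *Drd4* had at most 7 and 2 fragments in a library.

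Among transcription factors of noradrenaline neurons, 0 of 10 tested were called, with a median log2 fold change of 0.13. Of these, 7 were above 0, against 11227 of all 21854 loci tested. *Ebf3* (0.18, unadjusted p = 0.0143 and adjusted p = 0.512 from edgeR) was the 1 gene with an unadjusted p under 0.05, and *Gata2* had 0.28 (adjusted p = 0.725). *Hand2*, a factor of sympathetic neurons outside the brain, had 0 fragments in all libraries. Of 6 tested transcription factors of midbrain dopamine neurons, only *En2* was called. The authors had already reported *En2* as lower in these libraries, so this call is no separate support. In their RT-qPCR of the medulla, its reduction did not reach significance. *En2* had 229, 179 and 169 fragments under the control label and 79, 121 and 78 under the cKO label, or -1.06 on the log2 scale (standard error 0.16, edgeR adjusted p = 0.00338). *En2* is also made by cerebellar neurons, and the summed cerebellar markers moved with the same labels. Their part in the *En2* difference was not tested. *En1*, its paralog in dopamine neurons, had a log2 fold change of 0.28 and an adjusted p of 0.855. *Pitx3*, which marks dopamine neurons of the midbrain, had 1 to 4 fragments a library and was not tested. Of noradrenaline neuron markers (neuropeptides and receptors such as *Gal*, *Npy* and *Calca*), 0 of 10 were called and 0 had an unadjusted p under 0.05, with a median of 0.04. Of 9 midbrain dopamine neuron markers, 0 were called (median 0.08) and only *Ret* had an unadjusted p under 0.05 (log2 fold change 0.14, unadjusted p = 0.046 and adjusted p = 0.702 from edgeR).

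The loci whose levels followed a member most closely over the 6 libraries were named by Pearson's r of log2 CPM, among 14872 tested loci with a single gene name. For *Slc6a3* they were *Ogfod1* (r = 0.997), *Rangap1* (0.989) and *1500001M20Rik* (0.988), and 106 loci had r over 0.9. *Ogfod1* moved far less than *Slc6a3*, from 1619 to 1954 fragments. For *Th* they were *Pou4f2*, a transcription factor gene of visual neurons (r = 0.986), *Ttc34* (0.985) and *Slc39a6* (0.983), of 67 loci with r over 0.9. Control replicate 3 and cKO replicate 2 were highest for *Pou4f2* too, at 48 and 49 fragments, against 26 to 32 elsewhere. For *Dbh* they were *Dyx1c1* (r = 0.992), *Mthfd2l* (0.986) and *Cno* (0.986), of 118 loci with r over 0.9, and *Dyx1c1* and *Mthfd2l* had only 10 to 22 fragments a library. Without the 2 libraries farthest from the member's median, r was 0.859 to 0.9999 for *Slc6a3*, 0.982 to 0.9999 for *Th* and 0.819 to 0.970 for *Dbh*. These values describe 6 points that share depth and library, and carry no test.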

How the data were processed

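RNA from the brainstem of P21 mice was read in 6 libraries, each a pool of 3 brainstems. The authors called bases with CASAVA 1.6, aligned reads to mm10 with TopHat2 2.0.9, assembled transcripts with Cufflinks 2.2.0 and quantified loci with Cuffdiff. The deposited table gives fragments of each locus as whole counts, and FPKM that Cuffdiff scaled between libraries. The deposited assembly gave names and, in its other columns, exon coordinates. The table's replicate numbers were used as names within a genotype, since which pool each stands for is not given in the sources used here. The authors took controls from the same litters as the cKO animals. Whether pools of equal number shared litters is not given either. Pools are the replicates, so p-values measure the spread between pools.

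Counts were normalized by TMM, filtered with filterByExpr (21854 loci left, at 12034613 to 13202707 fragments a library) and tested with edgeR 4.0.16 (quasi-likelihood) in R 4.3.3, with Benjamini-Hochberg adjustment over all loci and a threshold of 0.05. Levels are CPM, log2 values having a prior count of 2. Alternatives used DESeq2 1.42.0, limma 3.58.1 on log2(FPKM + 1) or log2(FPKM + 0.1), other scalings and filters, the replicate number as a block, and libraries left out. The pipeline was tested on simulated data. Exact tests ran in Python 3.11.15 with scipy 1.17.1. The 8 genes and all lists were chosen with earlier results of these data known. Named genes are the 8, *Hoxa5*, called or low-p genes of each list, and the 3 loci most like *Th*, *Dbh* and *Slc6a3*. *Chrnb3*, *Chrna6*, *Pax7*, *Tal1* and others were singled out once their values had been seen. Promoter sequences are from RefSeq (GRCm38.p6). Some genes are not reported here.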

Additional observations from a re-analysis of the deposited data

How the results depend on the processing

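No member was called under any alternative, and *Dbh*, *Slc6a2* and *Slc18a2* kept their direction in all 16. For *Slc6a3* the log2 fold change was -0.015 in limma on log2(FPKM + 0.1), with or without a filter, and ran from -0.75 to 0.67 with libraries left out, with -0.00025 without control replicate 1, -0.10 without control replicate 2 and -0.24 without control replicate 3 and cKO replicate 2, an alternative chosen after seeing the data. For *Th* it ran from -0.31 (without cKO replicate 2) to 0.34 with libraries left out, with -0.11 without control replicate 1 and -0.044 without control replicate 3 and cKO replicate 2. For *Ddc* it ran from -0.019 (without cKO replicate 1) to 0.11. The difference in the *Dbh* to *Slc6a3* ratio ran from -0.047 (without control replicate 3) to 1.09 with libraries left out. Over all loci, 116 calls became 0 in limma on log2(FPKM + 1), 1 on log2(FPKM + 0.1) and 0 on log2(FPKM + 0.1) without a filter, 221 without the filter on low counts, 76 with at least 50 fragments in 3 libraries, and 44 to 126 with libraries left out. With the replicate block there were 130 calls and 0 members called, *Dbh* had a log2 fold change of 0.46 (adjusted p = 0.235 from edgeR), and the ratio differed by 0.48. Deviations of same-numbered libraries correlated at 0.03, -0.08 and 0.05, and not every library correlated best with its own number. With so few libraries, these values cannot decide whether same-numbered pools shared litters or a batch. Each gene had 1 locus, so summing loci of a name could not change a value. Depth limits *Phox2a* and *Pnmt* most.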
